A study of Mus musculus with 8 samples.

Results

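The comparison set 2 libraries of Thy1+ spermatogonia labelled PRC1dKO (dKO) against 2 labelled PRC1ctrl (control), which are 4 of the 8 libraries of the study, and they were chosen by those labels alone. All 4 came from testes of C57BL/6 mice at postnatal day 7. The other 4 libraries are cKit+ spermatogonia, 2 dKO and 2 control, and share no library with the Thy1+ comparison. The labels name no allele or Cre. As background from published work on this mouse model, the dKO lacks Ring1 throughout the body and loses Rnf2 in germ cells through a Cre driven by the Ddx4 promoter, so somatic cells of the testis keep Rnf2. Whether the controls also lack Ring1, and how many animals gave each library, are not given in the sources used here. Nothing in the labels says that the replicates are separate animals, so p-values measure the spread between these libraries, which may be technical.

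PRC1, Polycomb repressive complex 1, adds ubiquitin to histone H2A through the ligases RING1 and RNF2 and keeps many developmental genes silent. It acts beside PRC2, which methylates histone H3. Thy1 is a surface protein used to enrich undifferentiated spermatogonia, the population that holds the stem cells of the male germ line, and Thy1 is also carried by stromal cells of the testis. Kit is carried by spermatogonia on their way to differentiation. In a spermatogonium, transcription factors such as SALL4 and ZBTB16 maintain the undifferentiated state, and PIWI proteins with their small RNAs silence transposons.

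Promoters of 3 of the genes described are printed as single examples, not as typical of the genes that changed. Hoxa13 and Six2, homeobox genes almost silent in control and higher in dKO, have promoters dense in CpG dinucleotides, a known feature of many Polycomb targets. Lin28a, an RNA-binding protein of undifferentiated germ cells that was lower in dKO, has a sparser one. Each sequence is the 250 bases before the gene's start, 5′ to 3′ on the minus strand of GRCm38.p6 from RefSeq, with every CpG in capitals. The windows are chr6:52260881-52261130 for Hoxa13, chr17:85688255-85688504 for Six2 and chr4:134018817-134019066 for Lin28a, each ending next to the deposited transcript start.
Hoxa13: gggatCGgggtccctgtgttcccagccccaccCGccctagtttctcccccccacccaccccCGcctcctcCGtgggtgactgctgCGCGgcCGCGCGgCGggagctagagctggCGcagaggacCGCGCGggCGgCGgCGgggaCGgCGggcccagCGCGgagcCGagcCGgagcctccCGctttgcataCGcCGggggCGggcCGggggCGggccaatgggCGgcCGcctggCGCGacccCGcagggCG
Six2: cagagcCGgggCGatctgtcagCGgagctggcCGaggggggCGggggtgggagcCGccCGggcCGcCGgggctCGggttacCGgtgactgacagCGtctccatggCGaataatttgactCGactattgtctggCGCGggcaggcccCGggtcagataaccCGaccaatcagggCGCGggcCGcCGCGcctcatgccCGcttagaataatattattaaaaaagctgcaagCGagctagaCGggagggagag
Lin28a: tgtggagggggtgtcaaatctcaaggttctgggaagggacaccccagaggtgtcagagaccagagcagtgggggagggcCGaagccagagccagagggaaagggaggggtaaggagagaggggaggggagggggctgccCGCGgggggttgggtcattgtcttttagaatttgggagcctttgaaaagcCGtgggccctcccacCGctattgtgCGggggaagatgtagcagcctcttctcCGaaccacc
They hold 35, 26 and 7 CpG, against a median of 6 over the 32851 promoter windows of the same length in the RefSeq table. The share of those windows with fewer CpG was 97.0% for Hoxa13, 90.4% for Six2 and 53.7% for Lin28a. No such comparison was made over the genes that changed, since the table held promoters for 72.0% of the genes that rose and 78.5% of those that fell, too few for a fair count.

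The 4 libraries held 7135129 to 8755623 counts each. Log2 levels correlated at 0.977 between the control replicates and at 0.981 between the dKO replicates, against 0.966 to 0.971 between groups, across genes, which are not independent replicates. The first principal component, with 51.1% of the variance, separated dKO from control, and the second, with 27.4%, separated the 2 control libraries from each other. Rnf2 was at 106 and 124 CPM (counts relative to the TMM-scaled library size) in the control replicates and at 130.4 and 128 in the dKO replicates, a log2 change of 0.16 ± 0.11 (SE; edgeR adjusted p = 0.407). Ring1 was low in all 4, at 3.25 and 2.79 against 2.64 and 5.25 CPM (0.37 ± 0.47, edgeR adjusted p = 0.706). A count over the whole gene need not fall when some exons are deleted, and other cells of the sample can supply Rnf2, so these values do not check the labels. Thy1 itself stood at 26.9 and 18.5 CPM in control and at 13.1 and 16.0 in dKO (-0.64 ± 0.22, edgeR adjusted p = 0.101). Kit stood at 311 and 328 against 316 and 285 CPM (-0.09 ± 0.09, edgeR adjusted p = 0.638).

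Markers of several cell types were present in every library. Per kilobase of transcript, the germ cell genes Dazl and Mael had mean deposited RPKM values of 61.8 and 51.5 in control and 56.6 and 40.7 in dKO. The undifferentiated markers Zbtb16 (8.63 and 5.71), Gfra1 (3.09 and 4.41) and Nanos2 (0.439 and 0.435) were lower, with Kit at 17.1 and 16.1. Somatic genes were at higher levels: the steroid enzyme Hsd3b1 of Leydig cells at 273 in control and 404 in dKO, the Leydig hormone Insl3 at 104 and 141, the Leydig enzyme Cyp17a1 at 40.4 and 26.2, and the matrix proteins Dcn (218 and 188) and Col1a1 (122 and 103) of stromal cells. Endothelial Cdh5 (19.06 and 26.9) and macrophage Csf1r (11.4 and 15.7) were also detected. The other endothelial markers, Pecam1 (0.837 and 1.48) and Kdr (0.540 and 0.984), were much lower than Cdh5, and macrophage C1qa was at 2.59 and 2.56. The Sertoli genes Fshr (0.206 and 0.167) and Amh (0.164 and 0.382) were near 0. Others of the Sertoli set were higher: Cldn11 (0.520 and 0.564), Sox9 (1.56 and 1.62), Wt1 (1.81 and 1.62) and Gata4 (11.3 and 15.7). None of these defining markers was at 0 in a library. The Thy1+ libraries therefore held RNA of germ cells together with RNA of Leydig and stromal cells, and fewer cells of a type and less RNA per cell cannot be told apart in them.

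**Figure D1:**
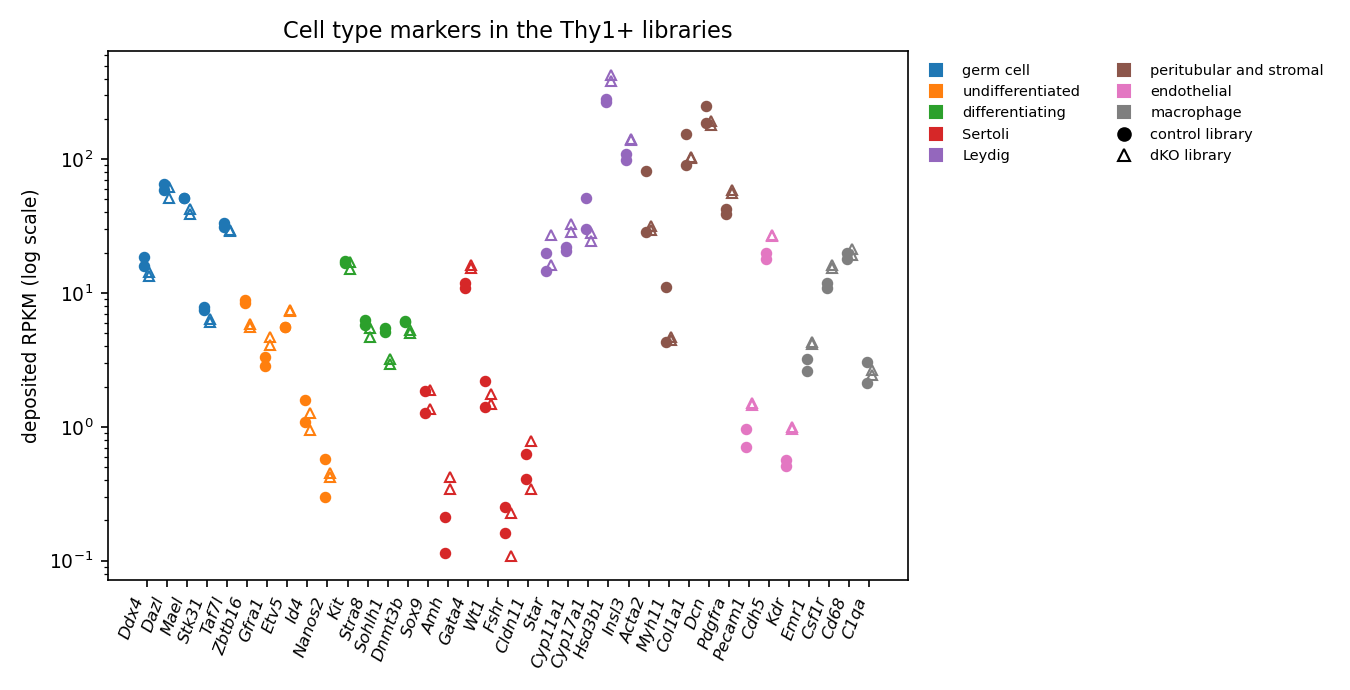
Deposited RPKM values (log scale) of cell type markers in the Thy1+ libraries, with circles for the 2 control and open triangles for the 2 dKO libraries, coloured by cell type. Hsd3b1 has the highest values of all markers drawn (265 and 280 in control, 381 and 427 in dKO), and Acta2 and Myh11 are far higher in control replicate 1 than in the other 3 libraries.

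The main question was which genes differ between dKO and control in Thy1+ cells. Of 14374 genes with enough counts, 870 (6.05%) changed in edgeR's quasi-likelihood test fitted to these 4 libraries with Benjamini-Hochberg adjustment at 0.05. Of these, 432 (3.01%) were higher in dKO and 438 (3.05%) lower, and 3122 genes had an unadjusted p under 0.05. The counts of called genes in every list below are to be read beside these shares. Most changes were small: the median log2 fold change was 0.60 among the genes that rose and -0.58 among those that fell, and the smallest called change was 0.29. A change of at least 2-fold was reached by 86 higher genes (0.598%) and 73 lower genes (0.508%). Over all genes tested the median was 0.01, and 51.0% were above 0. No called gene had overlapping groups. With 2 libraries a group a call nearly requires this, and the share over all tested genes was not counted, so it adds no support.

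The number of calls rested on how the spread was estimated. Fitted on all 8 libraries, where the cKit+ replicates spread more, 93 of 14907 genes (0.624%) passed, 54 higher and 39 lower, and all 93 were among the 870. The count was 163 without dKO replicate 2, 470 without dKO replicate 1, 1535 without control replicate 1 and 1612 without control replicate 2. It was 27 when 1 transcript entry stood for each gene symbol in place of the sum over entries. The split between higher and lower rested on the scaling: with scaling factors from germ cell genes 3159 genes were higher and 114 lower, and with factors from somatic marker genes, an alternative added after the data were seen, 74 were higher and 4259 lower. Of the 432 genes that rose, 61 also rose with somatic scaling, and of the 438 that fell, 85 also fell with germ cell scaling. These 2 scalings moved the median of all genes to -0.42 and 0.36. Directions of small changes are given here relative to the TMM scaling, and each list's direction is given with the scaling that turned it.

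**Figure D2:**
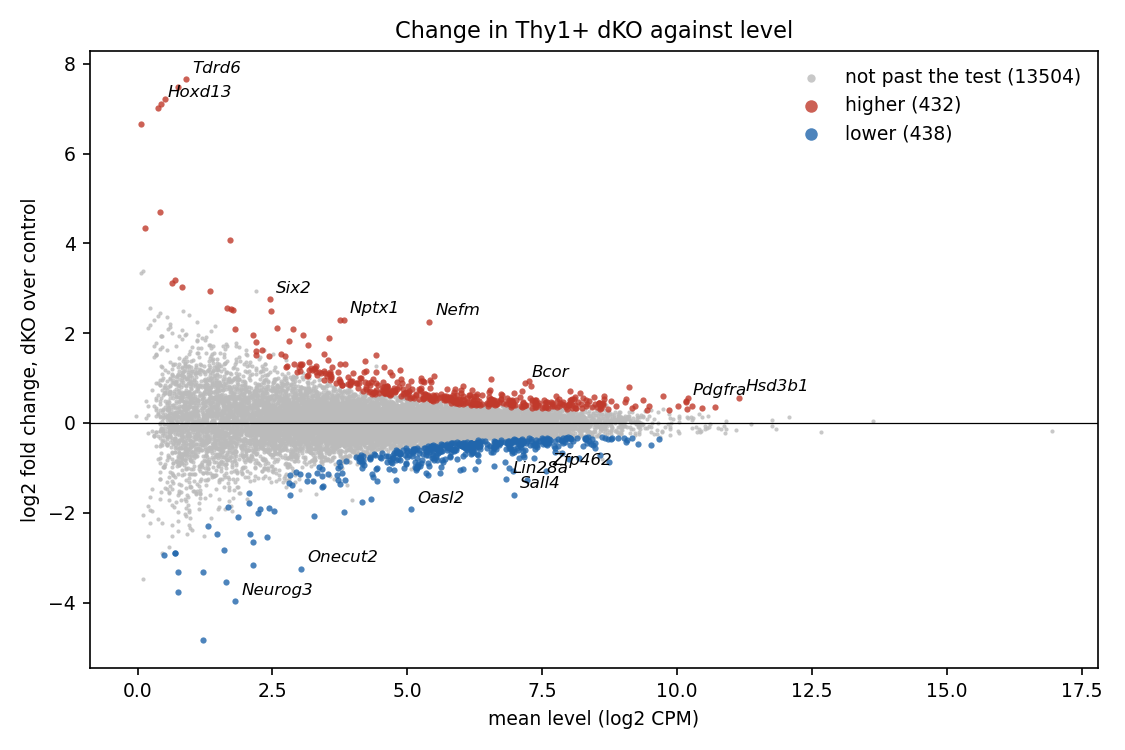
Log2 fold change of dKO over control (vertical axis) against the mean level in log2 CPM (horizontal axis) for 14374 genes, with the 432 genes that rose in red, the 438 that fell in blue and the rest in grey. Sall4, Lin28a and Zfp462 are the named falls at high level, Nefm is the named rise furthest from the rest above 5 log2 CPM, and Hoxd13 and Tdrd6, near 7 on the vertical axis, had 0 counts in control.

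Transcripts of some of the factors that maintain undifferentiated spermatogonia fell. Of 22 tested transcription and RNA factors of this state, 11 fell, 0 rose and 11 did not pass, where 3.05% of all tested genes fell. The median log2 fold change was -0.66 (-0.31 with germ cell scaling), and 7 to 13 fell once 1 library was left out. Among those that did not pass, Nanos2, an RNA-binding protein of the stem cell state, was at -0.05 ± 0.55 and Pax7, a paired box factor, at 1.38 ± 0.58. Sall4, which encodes a zinc finger factor of stem cells and of germ cells (mm10 chr2:168748332-168767201, as deposited), was at 179 and 197 CPM in the control libraries and at 63.2 and 61.2 CPM in the dKO libraries. Its replicates lay close together and its groups far apart, and the log2 change was -1.60 ± 0.10 (SE; edgeR adjusted p = 9.98e-07). Its relative Sall1 went from 32.1 and 28.5 to 11.1 and 7.32 CPM (-1.70 ± 0.22, edgeR adjusted p = 7.51e-04). Lin28a, which blocks maturation of let-7 microRNAs and whose promoter is printed above, went from 162 and 157 to 71.7 and 62.3 CPM (-1.25 ± 0.11, edgeR adjusted p = 2.04e-05). Zfp462, a zinc finger protein of pluripotent cells (chr4:54947945-55083563), was at 253 and 262 CPM in control and at 115 and 129.5 in dKO (-1.07 ± 0.10, edgeR adjusted p = 3.26e-05). In each of these 4 genes both dKO libraries lay far under both controls.

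At lower levels, Neurog3, a bHLH factor of progenitor spermatogonia, was at 5.70 and 6.54 CPM in control and at 0.229 and 0.552 in dKO, a log2 change of -3.96 ± 0.59 (edgeR adjusted p = 0.00242). Ascl2, another bHLH factor, went from 13.4 and 17.0 to 5.96 and 5.25 CPM (-1.44 ± 0.27, edgeR adjusted p = 0.00773). Zbtb16, the classical marker PLZF, fell less, from 148 and 172 to 108 and 103 CPM (-0.60 ± 0.11, edgeR adjusted p = 0.00497). Without dKO replicate 2 the Zbtb16 change was -0.58 and did not pass (edgeR adjusted p = 0.0704), and with germ cell scaling it was -0.24 (edgeR adjusted p = 0.291). Sall4, Sall1, Lin28a, Zfp462, Neurog3 and Ascl2 passed without any one library, under both scalings and in the fit on all 8 libraries. With 1 entry per symbol only 3 genes of the list stayed lower, Sall4, Lin28a and Zfp462, so Sall1, Neurog3 and Ascl2 did not pass there.

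The genes that respond to GDNF and FGF, the growth factors that sustain spermatogonial stem cells, did not fall with these factors. Of 18 tested receptors and effectors, 3 rose, 0 fell and 15 did not pass (median 0.22, and -0.22 with somatic scaling). Etv5, a transcription factor induced by GDNF, was at 72.8 and 81.0 CPM in control and at 103 and 102 in dKO (0.41 ± 0.11, edgeR adjusted p = 0.0356). Ccnd2, cyclin D2, rose by 0.38 ± 0.09 (edgeR adjusted p = 0.0183). The third was Csf1r, the CSF1 receptor, which is also a macrophage marker (0.46 ± 0.10). Gfra1, the GDNF co-receptor, was at 31.3 and 40.9 against 54.5 and 47.9 CPM and did not pass (0.50 ± 0.15, edgeR adjusted p = 0.0667). Etv5, Ccnd2 and Csf1r did not pass once either dKO library was left out (edgeR adjusted p from 0.121 to 0.236), Etv5 not without control replicate 1 (edgeR adjusted p = 0.0834), and with somatic scaling their changes were -0.01, -0.05 and 0.04.

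Surface markers of undifferentiated spermatogonia moved in both directions, with 5 of 15 higher, 1 lower and a median of 0.14 (-0.30 with somatic scaling). Epha2, an ephrin receptor, rose from 9.36 and 12.4 to 34.4 and 28.0 CPM (1.52 ± 0.21, edgeR adjusted p = 0.00105). Cdh1, E-cadherin, rose from 14.2 and 13.3 to 30.7 and 35.2 CPM (1.26 ± 0.18, edgeR adjusted p = 0.00177). Both stayed higher with somatic scaling, by 1.11 and 0.82. Cd24a (0.51 ± 0.11), a glycoprotein of many progenitor cells, also rose, but did not pass without dKO replicate 2 (0.41, edgeR adjusted p = 0.228). Mcam, a cell adhesion protein, fell from 188 and 154 to 102 and 96.0 CPM (-0.79 ± 0.11, edgeR adjusted p = 0.00143).

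**Figure D3:**
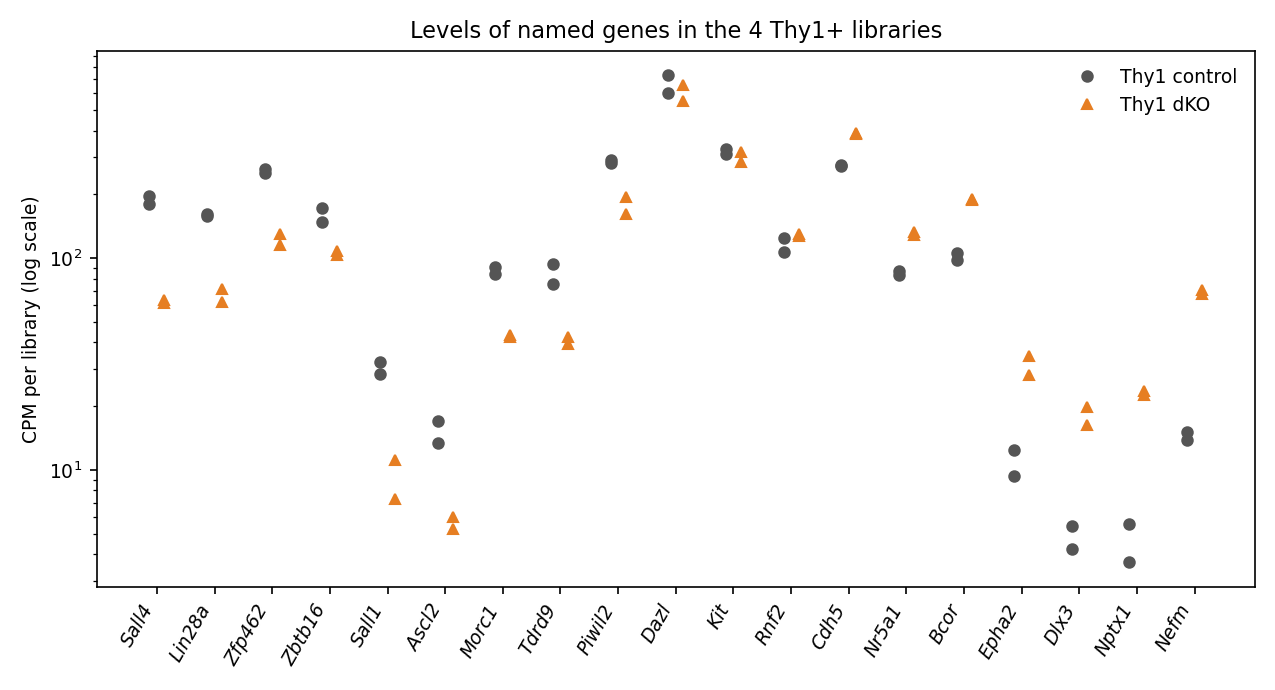
CPM per library (log scale) of 19 named genes in the 4 Thy1+ libraries, with circles for control and triangles for dKO. Both dKO points lie under both control points from Sall4 to Piwil2 and above them from Cdh5 to Nefm, while Dazl and Kit overlap and Rnf2 lies slightly higher in dKO without passing the test.

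Of 22 tested genes of the piRNA pathway and germ granule, 8 fell, 1 rose and 13 did not pass, where 3.05% of all tested genes fell and 3.01% rose. The median was -0.50 (-0.14 with germ cell scaling). The lower count was 14 without control replicate 1 and 3 without dKO replicate 2. Tdrd9, a helicase that acts in transposon silencing, went from 93.3 and 75.6 to 39.3 and 42.4 CPM (-1.05 ± 0.13, edgeR adjusted p = 6.89e-04). Morc1, a chromatin ATPase that represses transposons in germ cells, went from 84.5 and 90.5 to 43.5 and 42.2 CPM (-1.03 ± 0.12, edgeR adjusted p = 3.27e-04). Piwil2, the PIWI protein MILI, was at 290.2 and 280.2 CPM in control and at 195 and 162 in dKO (-0.67 ± 0.10). Piwil4, the nuclear PIWI protein MIWI2, was low, at 7.05 and 7.39 against 1.60 and 2.21 CPM (-1.92 ± 0.41, edgeR adjusted p = 0.0135). Tdrd9 and Morc1 passed without any one library and with germ cell scaling. With 1 entry per symbol 1 gene of the list stayed lower, Morc1, so Tdrd9 did not pass there. Piwil2 did not pass without dKO replicate 2 (edgeR adjusted p = 0.0636) nor with germ cell scaling (-0.33, edgeR adjusted p = 0.127), and Piwil4 did not without dKO replicate 1 (edgeR adjusted p = 0.0512). The member that rose was Tdrd6, a chromatoid body protein of later germ cells. It had 0 counts in both controls and stood at 3.09 and 3.31 CPM in dKO, at least 16.6-fold higher when 3 counts over both controls are taken as the limit that 0 allows.

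Among 29 genes of core germ cell identity, which share 11 members with the piRNA list, 8 fell and 1, Dppa3, rose (1.49 ± 0.38), with a median of -0.30 that turned to 0.06 with germ cell scaling. The lower count was 16 without control replicate 1 and 2 without dKO replicate 2, and Dppa3 did not pass once either dKO library was left out. Nxf2, an X-linked RNA export factor, fell from 361 and 379 to 224 and 204 CPM (-0.79 ± 0.09, edgeR adjusted p = 3.27e-04). Rnf17, a germ granule protein, had a log2 fold change of -0.56 ± 0.12 and did not pass without dKO replicate 2 (-0.45, edgeR adjusted p = 0.186). Dazl, a germ cell translation factor, was at 599 and 731 CPM in control and at 659 and 553 in dKO, with overlapping groups (-0.13 ± 0.11, edgeR adjusted p = 0.510). Ddx4, the RNA helicase Vasa, was at 154 and 197 against 143 and 137 CPM (-0.33 ± 0.11, edgeR adjusted p = 0.103). The summed level of the list was 4420 and 5008 CPM in control and 4062 and 3568 CPM in dKO. Sall4, Lin28a and Neurog3 were lower by more than Dazl or Ddx4, but these are picked genes. Piwil4, a gene of low level also on this list, was at -1.92 ± 0.41, against -1.60 for Sall4 and -1.25 for Lin28a. Whether the lists differ in their fall was not tested.

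Genes of differentiating spermatogonia mostly lay slightly under 0 on the TMM scale, and few passed. Of 18, 2 were above 0, against 51.0% of all tested genes. In this list 1 rose, 2 fell and 15 did not pass, where 3.01% of all tested genes rose and 3.05% fell. The median was -0.25 (0.10 with germ cell scaling). Uchl1, a ubiquitin hydrolase of spermatogonia, fell from 69.4 and 63.5 to 33.9 and 27.6 CPM (-1.11 ± 0.14, edgeR adjusted p = 7.27e-04). It is on this list but is not specific to differentiating cells, so its fall is no sign of that state. The bHLH factors Sohlh1 and Sohlh2, which act together in spermatogonial differentiation, moved apart: Sohlh1 fell from 24.4 and 25.1 to 14.8 and 13.8 CPM (-0.79 ± 0.19) and Sohlh2 rose from 49.9 and 55.5 to 80.8 and 70.8 CPM (0.53 ± 0.12). Neither passed without dKO replicate 1 (edgeR adjusted p = 0.0570 and 0.212) or dKO replicate 2 (edgeR adjusted p = 0.170 and 0.0793). Stra8, a retinoic acid target needed for meiotic entry, was at 31.7 and 31.6 against 28.5 and 24.6 CPM (-0.25 ± 0.16, edgeR adjusted p = 0.395).

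Of 29 meiotic genes, 2 rose, 0 fell and 27 did not pass (median -0.07, and 0.28 with germ cell scaling). Over all tested genes 3.01% rose and 3.05% fell. Smc1b, the meiotic cohesin subunit, was at 205 and 236 CPM in control and at 345 and 312 in dKO (0.58 ± 0.10, edgeR adjusted p = 0.00458). Mei1, needed for meiotic recombination, went from 9.09 and 8.36 to 18.6 and 13.8 CPM (0.90 ± 0.25, edgeR adjusted p = 0.0451) and did not pass once either dKO library was left out (edgeR adjusted p = 0.346 and 0.0798). With somatic scaling the change of Smc1b was 0.16 (edgeR adjusted p = 0.487). Of 10 tested oocyte genes, 2 rose and 1 fell, the last being Sohlh1. Nobox, an oocyte homeobox factor, rose from 2.17 and 3.15 to 10.5 and 12.6 CPM (2.10 ± 0.34, edgeR adjusted p = 0.00367) and stayed higher with somatic scaling, by 1.68. Nlrp5, a maternal effect gene also known as Mater, was at 0 and 0.485 against 2.41 and 2.49 CPM, and did not pass without control replicate 1 or once either dKO library was left out (edgeR adjusted p from 0.164 to 0.223). None of the 6 late spermatogenesis genes with enough counts passed.

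Few cell cycle genes passed. Of 32 S phase genes 1 fell and 31 did not pass, and of 26 G2 and M phase genes 2 fell and 24 did not pass, with 0 higher in either list and 3.05% of all tested genes lower. The S phase count was 6 without control replicate 1 and 10 without control replicate 2, and the G2 and M phase count 5 without either. The medians of -0.27 and -0.15 turned to 0.09 and 0.21 with germ cell scaling. Chtf18, of the clamp loader for sister chromatid cohesion, went from 31.3 and 25.8 to 12.6 and 12.3 CPM (-1.20 ± 0.19, edgeR adjusted p = 0.00365). Ndc80, a kinetochore protein, fell by 0.66 ± 0.12 on the log2 scale, and Cenpf, another, by 0.31 ± 0.09. Cenpf did not pass once either dKO library was left out (edgeR adjusted p = 0.206 and 0.406). Among 23 CDK inhibitors and p53 response genes, Pmaip1, the proapoptotic protein NOXA, rose (0.81 ± 0.19) and Ddit4, an inhibitor of mTOR signalling, fell (-0.80 ± 0.22). Without dKO replicate 2 neither passed (edgeR adjusted p = 0.103 and 0.344), Pmaip1 not without dKO replicate 1 (edgeR adjusted p = 0.0610) and Ddit4 not without control replicate 2 (edgeR adjusted p = 0.0768). Cdkn2a, the Ink4a/Arf gene that PRC1 represses in many cells, was at -0.17 and did not pass.

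**Figure D4:**
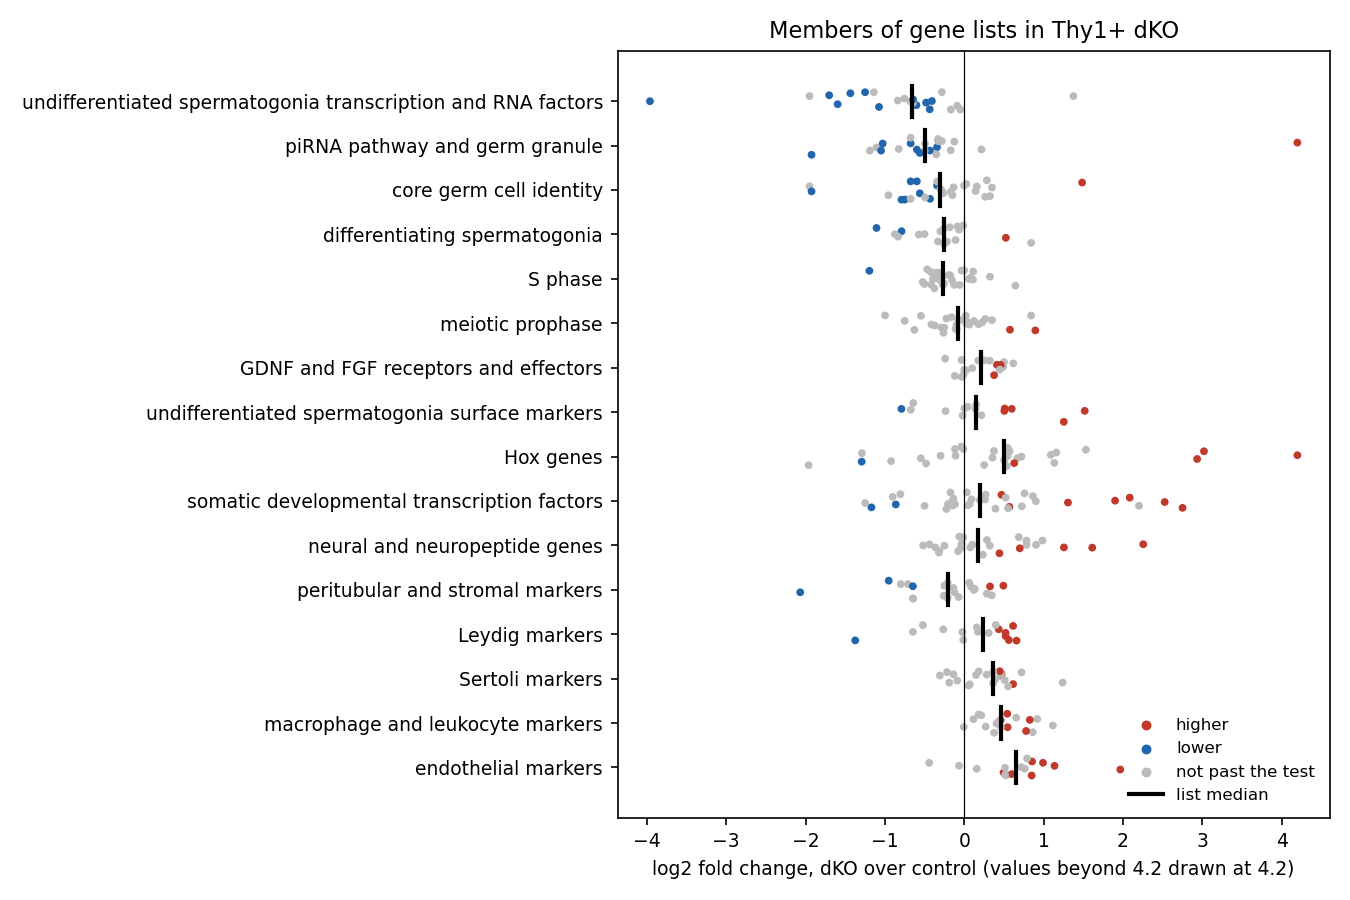
Log2 fold changes of the tested members of gene lists in Thy1+ dKO, 1 point a gene, red for genes that rose, blue for genes that fell and grey for the rest, with a black bar at each list's median. The transcription and RNA factors of undifferentiated spermatogonia lie to the left (median -0.66) and the endothelial markers to the right (median 0.66), and values beyond 4.2 are drawn at that value.

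A minority of neural genes rose. Of 26 tested neural and neuropeptide genes, 5 rose, 0 fell and 21 did not pass, with a median of 0.17 (-0.28 with somatic scaling), where 3.01% of all tested genes rose. The higher count was 2 once either dKO library was left out. Nefm, the medium neurofilament subunit (chr14:68119545-68125004), was at 13.8 and 15.1 CPM in control and at 70.8 and 67.9 in dKO. The dKO libraries were high to a like degree, and the log2 fold change was 2.26 ± 0.15 (edgeR adjusted p = 9.98e-07). Prokr2, a neuropeptide receptor, rose from 7.73 and 6.30 to 17.2 and 16.3 CPM (1.26 ± 0.25, edgeR adjusted p = 0.00995). Npffr2, another, rose by 1.61 ± 0.41 and did not pass once either dKO library was left out (edgeR adjusted p = 0.112 and 0.166). Ntrk2, the BDNF receptor, rose by 0.44 ± 0.09, not past the test once either dKO library was left out (edgeR adjusted p = 0.0735 and 0.189) and at 0.01 with somatic scaling. Outside the list, Nptx1, a secreted pentraxin of neurons, went from 3.66 and 5.57 to 22.5 and 23.6 CPM (2.30 ± 0.26, edgeR adjusted p = 2.85e-04). Slc6a17, an amino acid transporter of synaptic vesicles, went from 6.10 and 2.91 to 22.2 and 21.4 CPM (2.29 ± 0.30, edgeR adjusted p = 7.59e-04). Nefm, Nptx1, Slc6a17 and Prokr2 passed without any one library, under both scalings and in the fit on all 8 libraries. Only Nefm among them passed under every setting. With 1 entry per symbol, and with limma on log2(RPKM + 1), 1 gene of the neural list passed, Nefm, so Prokr2 did not.

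Homeobox and other developmental transcription factors, many of them known Polycomb targets, rose in part. Of 35 with enough counts, 7 rose and 2, Foxf1 (-0.86 ± 0.18) and Dlx1 (-1.17 ± 0.32), fell (median 0.20, and -0.24 with somatic scaling), while 40 of the 75 listed had too few counts. Six2, a factor of kidney progenitors whose promoter is printed above, was nearly silent in control, at 0.814 and 1.82 CPM, and at 9.05 and 9.11 in dKO (2.75 ± 0.43, edgeR adjusted p = 0.00310). Dlx3, a factor of skin and tooth, went from 5.42 and 4.24 to 16.3 and 19.9 CPM (1.90 ± 0.27, edgeR adjusted p = 0.00151). Zic1, a factor of neural development, went from 7.87 and 7.27 to 19.4 and 18.1 CPM (1.31 ± 0.23, edgeR adjusted p = 0.00564). These 3 passed without any one library and stayed higher with somatic scaling, by 2.34, 1.46 and 0.88. In the fit on all 8 libraries Six2 and Zic1 did not pass (edgeR adjusted p = 0.0553 and 0.142). With 1 entry per symbol 0 of 34 tested factors of this list passed. Gata4, a factor of testis somatic cells, rose from 138 and 139.7 to 196 and 188 CPM (0.47 ± 0.09). It did not pass once either dKO library was left out (edgeR adjusted p = 0.102 for each) and was at 0.04 with somatic scaling. Sall3, a further Sall family member, rose from 5.42 and 6.91 to 15.1 and 17.7 CPM (1.40 ± 0.26) and did not pass without dKO replicate 2 (edgeR adjusted p = 0.0624). Onecut2, a homeobox factor of liver and neurons, fell from 14.1 and 14.5 to 1.60 and 1.38 CPM (-3.24 ± 0.34, edgeR adjusted p = 1.88e-04).

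Of 39 Hox genes, 29 had enough counts, and 4 of these rose and 1 fell (median 0.50, and 0.09 with somatic scaling). The rises were Hoxd9 (0.63 ± 0.16) and each of the 3 tested genes at the 5′ end of a cluster, which pattern the hindmost body, while Hoxb13 had too few counts. Hoxd13 had 0 counts in both controls and stood at 2.41 and 1.93 CPM in dKO, at least 11.4-fold higher by the same limit. Hoxa13, with its promoter printed above, was at 0.407 and 0.242 against 2.29 and 3.18 CPM (3.02 ± 0.74, edgeR adjusted p = 0.0263). Hoxc13 was at 0.271 and 0.727 against 4.12 and 3.87 CPM (2.94 ± 0.64, edgeR adjusted p = 0.0148). Hoxc4, at the other end of its cluster, fell from 14.9 and 9.57 to 4.47 and 5.52 CPM (-1.29 ± 0.32, edgeR adjusted p = 0.0262). The changes of Hoxa13, Hoxc13 and Hoxd13 were 2.60, 2.53 and 6.93 with somatic scaling, all past the test, the last fitted against 0 counts and no bound, and Hoxd9 did not pass. No Hox gene passed without dKO replicate 2 or in the fit on all 8 libraries, and no rise passed without dKO replicate 1. For Hoxa13, Hoxc13, Hoxd13 and Hoxc4 the edgeR adjusted p was 0.0558 to 0.253 without dKO replicate 2 and 0.110 to 0.141 in the fit on all 8 libraries. For Hoxa13, Hoxc13 and Hoxc4 it was 0.0819 to 0.0934 without dKO replicate 1. Hoxd9 did not pass without control replicate 1, Hoxa13 not without control replicate 2 (edgeR adjusted p = 0.0955) and Hoxc4 not without control replicate 1 (edgeR adjusted p = 0.106).

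Signalling genes of the WNT, BMP, FGF and hedgehog families rose in 5 of 32 cases and fell in 1 (median 0.18, and -0.25 with somatic scaling). Bmp5, a BMP ligand, rose from 13.02 and 10.1 to 30.02 and 21.0 CPM (1.15 ± 0.23, edgeR adjusted p = 0.00984) and did not pass without dKO replicate 1 (edgeR adjusted p = 0.0908). Hhip, a hedgehog antagonist, rose from 107 and 120.2 to 205 and 195 CPM (0.82 ± 0.10, edgeR adjusted p = 4.63e-04). Ptch1, the hedgehog receptor, rose by 0.47 ± 0.09 and did not pass without dKO replicate 2 (edgeR adjusted p = 0.132). Dkk3, a secreted protein of the Dickkopf family, fell by 0.82 ± 0.16, with edgeR adjusted p = 0.0501 without dKO replicate 1. With somatic scaling the changes of Hhip and Ptch1 were 0.39 and 0.03, neither past the test (edgeR adjusted p = 0.0704 and 0.889).

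Subunits of the Polycomb complexes themselves changed in part. Of 13 canonical PRC1 subunits 1 rose and 3 fell, of 19 subunits of variant PRC1 1 rose and 2 fell, and of 12 PRC2 subunits 1 fell, with medians of -0.15, -0.11 and -0.03. Germ cell scaling turned these to 0.21, 0.24 and 0.33, and 0 subunits of the 3 lists then passed as lower. Bcor, a corepressor of the variant complex with PCGF1 (chrX:12036738-12160355), was at 106 and 97.6 CPM in control and at 188 and 189.8 in dKO (0.89 ± 0.10, edgeR adjusted p = 2.17e-04), and its rise passed under both scalings. Cbx2, the chromodomain subunit that reads methylated H3, fell from 78.0 and 84.6 to 50.2 and 47.9 CPM (-0.73 ± 0.12, edgeR adjusted p = 0.00365), but to -0.37 with germ cell scaling (edgeR adjusted p = 0.122). Mtf2, a PRC2 partner that binds CpG islands, fell from 142 and 161 to 100.5 and 88.5 CPM (-0.68 ± 0.11, edgeR adjusted p = 0.00331). Bmi1, Scml2, Pcgf5 and E2f6 fell by 0.36 to 0.52, and Phc3 rose by 0.36. Without dKO replicate 2 Mtf2, Bmi1, Scml2, Pcgf5, E2f6 and Phc3 did not pass (edgeR adjusted p from 0.0582 to 0.430), nor did Bmi1, Scml2 and Phc3 without dKO replicate 1 (edgeR adjusted p from 0.0934 to 0.294).

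Some markers of somatic testis cells rose in the same libraries in which some germ cell genes fell. Of 16 Leydig markers 6 rose and 1 fell (median 0.24), of 16 endothelial markers 7 rose (median 0.66), of 18 macrophage and leukocyte markers 5 rose (median 0.46), and of 22 Sertoli markers 3 rose (median 0.37), with 0 lower in the last 3 lists. With somatic scaling the medians were -0.19, 0.22, 0.04 and -0.06. Summed levels were 3343 and 4236 CPM in control against 4774 and 5274 in dKO for the Leydig list, 454 and 445 against 650.1 and 666 for the endothelial list, and 1166 and 1351 against 1656 and 1804 for the macrophage list. The part of these markers in the other results was not tested beyond the somatic scaling. Hsd3b1, the most abundant, was at 1692 and 1968 CPM in control and at 2536 and 2868 in dKO (0.56 ± 0.09, edgeR adjusted p = 0.00310). Hsd3b6, a related steroid enzyme and the Leydig marker that fell, went from 8.14 and 12.1 to 3.44 and 4.42 CPM (-1.37 ± 0.34, edgeR adjusted p = 0.0275), stayed lower with germ cell scaling, and did not pass once control replicate 2 or either dKO library was left out. Cyp17a1 was at 190 and 355 CPM in control and at 185 and 163 in dKO and did not pass (-0.65 ± 0.19, edgeR adjusted p = 0.0577). Nr5a1, the steroidogenic factor on both the Leydig and Sertoli lists, rose by 0.62 ± 0.10. Ptprb, a phosphatase of vessels, rose by 0.99 ± 0.15 and stayed higher with somatic scaling, by 0.56. Cx3cr1, the fractalkine receptor of macrophages, rose by 0.83 ± 0.13, from 43.9 and 49.4 to 91.1 and 74.4 CPM. Without dKO replicate 2 Hsd3b1 (0.46), Lhcgr (0.52), Akr1cl (0.54), Cdh5 (0.48), Vwf (1.43), Mrc1 (0.51), Itgam (0.61) and Clu (0.32) did not pass (edgeR adjusted p from 0.102 to 0.358).

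Peritubular and stromal markers were mixed: of 23 tested, 2 rose and 3 fell, with a median of -0.21 that turned to 0.07 without control replicate 1 and to 0.15 with germ cell scaling. Its smooth muscle genes stood out in that 1 library. Cnn1, calponin, was at 25.2 CPM in control replicate 1, at 5.94 in control replicate 2 and at 5.39 and 1.79 in dKO, a log2 change of -2.07 ± 0.55 (edgeR adjusted p = 0.0379). Actg2, smooth muscle actin gamma, was at 37.6, 7.51, 6.30 and 4.97 CPM in the same order (-1.98 ± 0.50). Without control replicate 1 these were -0.71 and -0.42 and did not pass (edgeR adjusted p = 0.419 and 0.607), nor did they without dKO replicate 2 (edgeR adjusted p = 0.150 and 0.0825). Acta2 showed the same order without passing, at 717 and 279 against 294 and 277 CPM (-0.80 ± 0.26, edgeR adjusted p = 0.0832). Lum, a matrix proteoglycan, fell from 149 and 108 to 74.9 and 57.2 CPM (-0.95 ± 0.15) and passed without any one library. With 1 entry per symbol 0 of the 23 markers passed. Postn, another matrix protein, fell by 0.65 ± 0.14 and did not pass without dKO replicate 2 (edgeR adjusted p = 0.0865), whereas Pdgfra, a receptor of stromal and Leydig progenitor cells, rose from 955 and 966 to 1306 and 1399 CPM (0.49 ± 0.08) and did not pass without the same library (edgeR adjusted p = 0.132).

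Interferon-stimulated and antigen presentation genes split, with 2 of 26 higher and 2 lower, beside 3.01% and 3.05% of all tested genes. Their median was -0.09, and 0.26 with germ cell scaling. Oasl2, an interferon-induced gene, fell from 66.2 and 39.7 to 13.3 and 14.8 CPM (-1.91 ± 0.22, edgeR adjusted p = 3.08e-04). Cd274, the checkpoint ligand PD-L1, fell from 40.4 and 37.3 to 15.7 and 16.6 CPM (-1.27 ± 0.17, edgeR adjusted p = 8.42e-04). H2-D1, a class I histocompatibility gene, rose from 46.2 and 41.4 to 74.1 and 73.4 CPM (0.75 ± 0.12), and H2-K1, another, by 0.51 ± 0.12. Reads of such genes can be split among near-identical copies, so their values are uncertain. H2-D1 and H2-K1 also both lie within 5 Mb of Ring1, and the part of this position in their change was not tested. H2-K1 did not pass once either dKO library was left out (edgeR adjusted p = 0.128 and 0.0989), and with somatic scaling H2-D1 was at 0.32 and H2-K1 at 0.08. Of 29 imprinted genes 2 rose, Peg3 (0.37 ± 0.08) and Zim1 (0.42 ± 0.11), and 1 fell, Ascl2, beside the same shares of all tested genes. Peg3 and Zim1 did not pass once either dKO library was left out (edgeR adjusted p from 0.108 to 0.241), Zim1 not without control replicate 2 (edgeR adjusted p = 0.0987), and with somatic scaling they were at -0.06 and -0.02. None of 15 DNA methylation genes and none of 20 immediate early and heat shock genes passed edgeR's test, and 0 of 46 ribosomal protein genes rose and 1, Rpsa, fell (-0.31 ± 0.08), which did not pass once either dKO library was left out (edgeR adjusted p = 0.211 and 0.378).

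Further genes of large change belonged to no list. Arhgef15 fell from 28.9 and 25.9 to 8.14 and 8.01 CPM (-1.76 ± 0.21, edgeR adjusted p = 3.66e-04). Aldoc, the glycolytic enzyme aldolase C, fell from 29.3 and 31.4 to 11.6 and 13.3 CPM (-1.29 ± 0.19, edgeR adjusted p = 0.00184). Ankrd45 and Fsd1, a protein of microtubules, fell by 1.40 ± 0.27 and 1.37 ± 0.26, Fsd1 not past the test without dKO replicate 2 (edgeR adjusted p = 0.0771). Nr2e1, an orphan receptor of neural stem cells, fell from 4.88 and 5.69 to 0.344 and 0.552 CPM, and Mobp, a myelin protein, from 3.93 and 4.12 to 0 and 0.276 CPM, both without overlap. Wnk2, a kinase, rose by 1.74 ± 0.31 and Fndc3c1, a fibronectin domain protein on the X chromosome, by 1.38 ± 0.20. Rmnd1, Phactr3, 9530059O14Rik and BC027072 had 0 counts in both controls and were at least 14.7-fold, 10.8-fold, 12.1-fold and 8.16-fold higher in dKO by the limit of 3 counts. They rested on 10 to 24 counts in each dKO library, and none of them passed in the fit on all 8 libraries (edgeR adjusted p from 0.0565 to 0.155). Of these, 9530059O14Rik did not pass without dKO replicate 2 (edgeR adjusted p = 0.0692) and BC027072 not without control replicate 2 (edgeR adjusted p = 0.0621).

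The cKit+ libraries, which the Thy1+ fit did not use, gave a second measure of the same genes. There 3148 of 13828 genes (22.8%) passed in their own 4-library fit, 1465 (10.6%) higher and 1683 (12.2%) lower. Of the 432 genes that rose in Thy1+ dKO, 415 were tested in cKit+ cells, 84.3% of them were above 0, 220 (53.01%) rose there too and 9 fell. Of the 438 that fell, 423 were tested, 90.1% were below 0, 264 (62.4%) fell there too and 5 rose. Over all 13510 genes tested in both, 51.9% were above 0, 10.7% rose and 12.4% fell. In cKit+ dKO the median was -1.56 for the core germ cell list, 0.47 for the Leydig list and 0.92 for the endothelial list, the same signs as in Thy1+ cells, and the part of somatic RNA in this was not tested. In 7 of the 30 lists the medians of the 2 populations had opposite signs. The stromal list was at -0.21 in Thy1+ and 0.75 in cKit+ dKO, the interferon list at -0.09 and 0.44, the CDK inhibitor list at -0.13 and 0.41, and the oocyte list at 0.42 and -0.10. The other 3, surface, DNA methylation and ribosomal genes, were within 0.16 of 0 in both. Sall4 (-2.94 in cKit+ dKO), Lin28a (-1.87), Morc1 (-2.70), Tdrd9 (-1.92), Ascl2 (-2.72), Sall1 (-2.39), Uchl1 (-1.89), Mcam (-1.62) and Nxf2 (-1.85) fell there, and Bcor (0.71), Hhip (1.25), Bmp5 (1.18) and Prokr2 (1.34) rose.

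The difference between the populations passed a test of its own, the interaction term of the fit on all 8 libraries, for 39 of the 415 genes that rose, 103 of the 423 that fell and 876 of all 13510. Of the 14907 genes in that fit, 883 (5.92%) passed. The 415 and the 423 were picked by their change in Thy1+ libraries that the interaction also uses. Their shares are therefore no result about them. Zfp462 fell in Thy1+ cells and was at 0.10 in cKit+ cells, a difference of 1.15 ± 0.17 (edgeR adjusted p = 0.00148). Onecut2 and Aldoc likewise fell in Thy1+ cells, with differences of 3.25 ± 0.79 and 1.46 ± 0.29. Smc1b rose in the 4-library fit of Thy1+ cells and fell in cKit+ cells (-1.15), a difference of -1.75 ± 0.22 (edgeR adjusted p = 8.40e-04). Mei1 (-2.20 in cKit+ cells) and Sohlh2 (-1.32) did the same. In the fit on all 8 libraries the Thy1+ rises of Smc1b, Mei1 and Sohlh2 did not pass (edgeR adjusted p = 0.0820, 0.181 and 0.157). Dazl, Ddx4 and Stra8 did not pass in Thy1+ cells and fell in cKit+ cells by 1.44, 1.80 and 1.63, with differences of -1.33, -1.499 and -1.40. For Nefm (0.87 in cKit+ cells) and Nptx1 (0.58) the difference did not pass (edgeR adjusted p = 0.0587 and 0.0598).

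**Figure D5:**
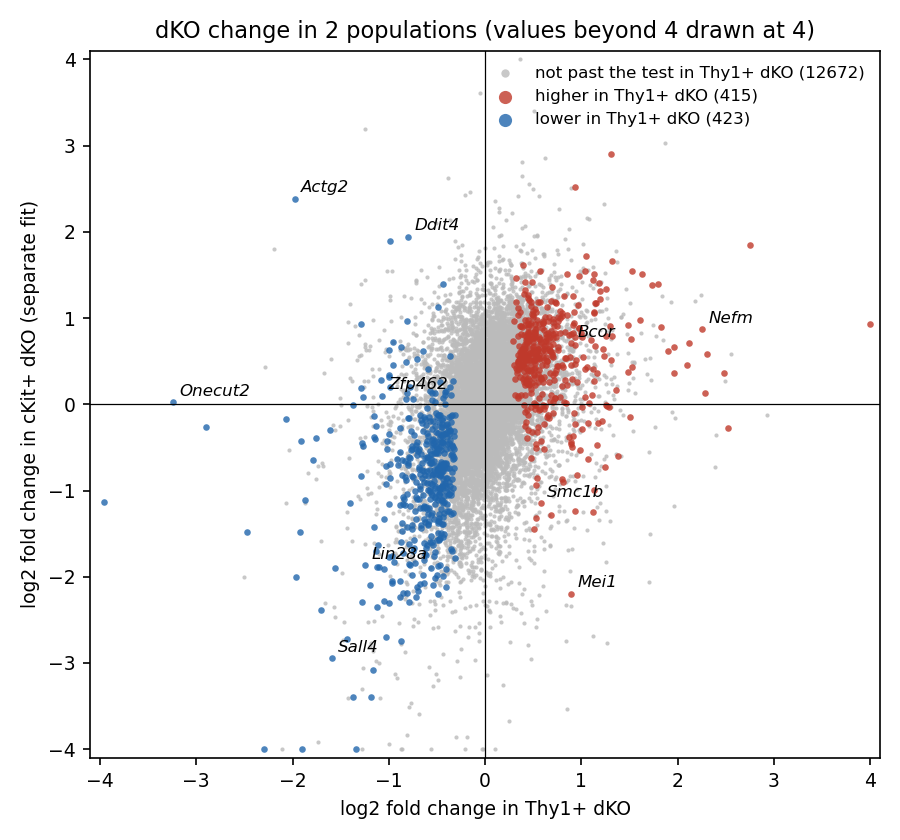
Log2 fold change of dKO over control in Thy1+ cells (horizontal axis) and in cKit+ cells (vertical axis, a separate fit) for 13510 genes, with the 415 that rose in Thy1+ cells in red and the 423 that fell in blue, and values beyond 4 drawn at that value. Most red points lie in the upper right and most blue points in the lower left, while Smc1b and Mei1 lie in the lower right.

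The changes were spread over the genome. On single chromosomes the share of tested genes that rose ran from 2.22% (chromosome 7) to 5.19% (chromosome 13), and the share that fell from 1.11% (chromosome 16) to 4.05% (chromosome X). Within 5 Mb of Rnf2, in mm10, 2 of 43 tested genes changed (4.65%), and within 5 Mb of Ring1 7 of 173 did (4.05%), below the 6.05% of all genes. The 7 near Ring1 included H2-D1 and H2-K1. The pair near Rnf2 was Hmcn1, an extracellular matrix protein, at 254 and 230.4 against 314 and 351 CPM (0.46 ± 0.09), and Swt1, an RNA endonuclease, at 86.4 and 92.6 against 59.2 and 70.8 CPM (-0.46 ± 0.12).

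In the fit on all 8 libraries the lists held fewer calls. The undifferentiated transcription and RNA factors had 6 lower genes, the piRNA list 2 lower and 1 higher, and the core germ cell and differentiating lists 1 lower each. The neural list had 3 higher genes, the Leydig list 3, the developmental transcription factors, the Sertoli and the endothelial lists 2 each, and the signalling and oocyte lists 1 each. Surface markers had 1 in each direction, the interferon list 2 lower, and the Hox, meiotic, GDNF and FGF, stromal and macrophage lists 0. Leaving out 1 library of the 4 also moved these counts: without dKO replicate 2 the endothelial list had 2 higher genes, the Leydig list 2 and the macrophage list 1. Without control replicate 2 the macrophage list had 11 higher, and the stromal list 13 and the Hox list 6 lower. Of the 103 named genes that were called, 36 passed in that fit.

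A small set of genes kept its call throughout. Without any one of the 4 libraries 111 calls passed each time, 41 higher and 70 lower, and 14 passed under all 15 other settings. The 3 higher ones were Nefm, Bcor and Gramd1b, a cholesterol transport protein (93.7 and 116 against 192 and 209 CPM). The 11 lower ones were Sall4, Lin28a, Zfp462, Morc1, Nxf2, Arhgef15, Brwd3, Cecr2, Mns1, Mt2 and Pramef12. Pramef12, of a family expressed in germ cells, went from 192 and 227 to 90.6 and 82.3 CPM (-1.28 ± 0.11, edgeR adjusted p = 2.04e-05), and Brwd3, an X-linked bromodomain protein, from 153 and 184 to 85.6 and 74.3 CPM (-1.08 ± 0.12). Of the 14, 5 belonged to the lists of undifferentiated factors, the piRNA pathway or germ cell identity, all of them lower in dKO. Those lists were chosen with earlier results of these data known, and the share of all tested genes on them was not counted. The 5 therefore only describe this set.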

How the data were processed

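RNA was measured by RNA-seq. Per the labels' protocols, total RNA was amplified to double-stranded cDNA, which keeps no strand, and made into Nextera XT libraries, and STAR 2.4.2a was used with the mm10 build, per the submitters' processing notes. The counting tool and its filters are not given in the sources used here. The deposited counts are whole reads per transcript entry, without normalization, per the file headers. The authors also deposited RPKM values, used here for marker levels and 1 alternative. Counts of 26099 entries were summed over 23343 gene symbols. Of these, 2060 have several entries, and 35 of 588 symbols with 2 entries of at least 100 counts had counts within 1% of each other, so some reads may be counted more than once. Overlapping and antisense genes, and reads shared by paralogs, cannot be separated.

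Genes were tested with edgeR 4.0.16 (R 4.3.3): filterByExpr, TMM, 1 mean per group on the 4 Thy1+ libraries, glmQLFit and glmQLFTest, two-sided, Benjamini-Hochberg threshold 0.05. The 4-library fit was used because common dispersion was 0.0120 in Thy1+ and 0.0324 in cKit+ libraries. It was chosen with both counts of calls known, and the members and the 30 gene lists were chosen with earlier results of these data known. A standard error is the absolute log2 change divided by the root of F. Folds against a group at 0 use a floor of 3 counts over the group, which covers counting error only. Named genes were Ring1, Rnf2, Thy1, Kit, genes picked from earlier results (Sall4, Sall1, Lin28a, Neurog3, Zbtb16, Gfra1, Etv5, Nefm, Gata4, Ddx4, Dazl, Stra8, Bcor and Mtf2), the 12 higher and 12 lower of largest change with mean log2 CPM from 3 up and no overlap, the 6 and 6 under 3, and up to 4 called members of smallest p per list. Gramd1b, Brwd3, Pramef12, Cecr2, Mns1, Mt2, Hmcn1, Swt1, Acta2, Cdkn2a, Hoxd9, Dppa3, Foxf1 and Dlx1 were named after their values were seen.

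On simulated data of 14137 genes for this comparison, the test recovered 70% of 100 genes changed 2-fold and 27% of 100 changed 1.5-fold, with 5 false calls. The changed genes were drawn above a minimum mean count, so these shares do not cover genes of few counts. The simulated spread was the one fitted to these libraries, so the 5 do not measure the error rate in the real data. Whether the replicate numbers pair the samples is not known. The replicate 1 minus 2 deviations of control and dKO correlated at -0.04 across genes, which cannot settle it. Alternatives were the 8-library fit, other scalings and filters, DESeq2 1.42.0, limma 3.58.1 on log2(RPKM + 1), 1 entry per symbol, the replicate block and leaving out each library.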

Additional observations from a re-analysis of the deposited data

Results flagged for a closer look

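For 34 of the 115 named genes the effect of dKO differed between cKit+ and Thy1+ cells by the interaction term of the fit on all 8 libraries (edgeR adjusted p under 0.05). Over all 14907 genes of that fit 883 (5.92%) passed. Most named genes were picked by their change in Thy1+ cells, and the interaction uses the same Thy1+ libraries. The share among named genes is therefore no result about them. Each value here is the log2 effect in cKit+ cells minus that in Thy1+ cells. Germ cell and spermatogonial genes were lower in cKit+ dKO than in Thy1+ dKO relative to their controls: Sall4 by -1.37, Morc1 by -1.69, Piwil2 by -1.43, Rnf17 by -1.36, Nxf2 by -1.09, Ddx4 by -1.499, Dazl by -1.33, Sohlh1 by -1.52, Sohlh2 by -1.86, Stra8 by -1.40 and Mcam by -0.85. The meiotic genes Smc1b and Mei1 differed by -1.75 and -3.11. The Polycomb subunits Cbx2, Scml2 and Pcgf5 differed by -1.13, -1.35 and -1.52, and the mitotic genes Cenpf and Ndc80 by -1.496 and -0.80. Slc6a17, Fndc3c1, Fsd1 and Sall3 differed by -2.18, -2.002, -2.05 and -2.55.

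Effects were higher in cKit+ cells for the GDNF-induced factor Etv5 (0.89), Zfp462 (1.15), Aldoc (1.46), Onecut2 (3.25), Hoxc4 (2.21), Ddit4 (2.72), the imprinted gene Zim1 (0.98) and the stromal genes Actg2 (4.40), Postn (1.25) and Dkk3 (1.29). The value of Actg2 includes the high control replicate 1 of the Thy1+ libraries. Tdrd6 and Rmnd1 had fitted differences of -7.62 and -14.5, which depend on groups at 0 counts and are no bounds.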

How the results depend on the processing

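The 870 calls (432 higher, 438 lower) became 93 (54 and 39) in the fit on all 8 libraries, 522 (233 and 289) with DESeq2, 1443 (654 and 789) without a filter on low counts, 49 (18 and 31) with limma on log2(RPKM + 1), and 27 (11 and 16) with 1 entry per symbol, where the common dispersion was 0.0284 in place of 0.0120. They became 3273 (3159 and 114) with germ cell scaling and 4333 (74 and 4259) with somatic scaling, the only alternative chosen after seeing the data. Leaving out each library gave 163 to 1612 calls, 70 to 769 higher and 93 to 843 lower. Counts with median-of-ratios scaling (935), library totals (815) and 5 CPM in 2 libraries (874) stayed within 1.5 times. Whether replicate numbers pair the samples is not known, and the correlation of deviations (-0.04) cannot settle it. The replicate block gave 1158 calls (560 and 598). DESeq2 gave an adjusted p to only 8174 genes, and kept 230 of the 432 higher and 282 of the 438 lower calls. The counts that follow leave out genes without an adjusted p, many of them with DESeq2, and genes whose direction turned. Of 103 calls of named genes, the 8-library fit ended 67, limma 81, 1 entry per symbol 90, DESeq2 8, library totals 5, the block 2 (Cenpf and Rpsa), germ cell scaling 14 and somatic scaling 23. Leaving out dKO replicate 2 ended 54 of them, dKO replicate 1 28, control replicate 1 7 and control replicate 2 4.

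Germ cell scaling turned the median log2 change of these lists positive: PRC1 core 0.21, PRC1 variant 0.24, PRC2 0.33, differentiating 0.10, core germ cell 0.063, meiotic 0.28, S phase 0.090, G2 and M phase 0.21, CDK inhibitor 0.23, interferon 0.26, DNA methylation 0.28, stromal 0.15 and ribosomal 0.26. It did the same for Cenpf (0.048), Dazl (0.22), Ddx4 (0.034), Kit (0.27), Rpsa (0.045) and Stra8 (0.10). Somatic scaling turned these negative: GDNF and FGF -0.22, surface -0.30, late spermatogenesis -0.31, developmental factors -0.24, ligands -0.25, neural -0.28, imprinted -0.30, Sertoli -0.056, Leydig -0.19 and immediate early -0.39, with Ccnd2 (-0.054), Etv5 (-0.013), Nr4a1 (-0.087), Peg3 (-0.059), Phc3 (-0.070), Ring1 (-0.079), Rnf2 (-0.26), Tet2 (-0.074) and Zim1 (-0.019). The late spermatogenesis median was -0.12 with DESeq2 and -0.060 without a filter. Over the fits that left out 1 library, medians ran from -0.14 to 0.064 for PRC2, -0.10 to 0.047 for meiotic, -0.42 to 0.14 for late spermatogenesis, -0.45 to 0.030 for interferon, -0.33 to 0.066 for stromal and -0.092 to 0.075 for immediate early genes, with Dazl at -0.29 to 0.011 and Ring1 at -0.20 to 0.78. A scaling on marker genes sets those genes near 0 by construction, and for the other shifts the cause was not tested. With 2 libraries a group, genes under about 1.5-fold were often missed in simulated data (27% found), so a gene not past the test may still differ.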
